A study of Mus musculus with 15 samples.

Results

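The LKB1 kinase complex and the AMP-activated protein kinase (AMPK) that it switches on were followed here through the 10 genes that encode their subunits, taken by gene name from a count table of 53465 genes. Stk11 encodes LKB1 itself, Strada and Stradb the STRAD pseudokinases, and Cab39 and Cab39l the MO25 scaffolds. Prkaa1 and Prkaa2 encode the catalytic alpha subunits of AMPK, Prkab1 and Prkab2 the scaffolding beta subunits, and Prkag1 the gamma subunit found in most tissues. All 10 passed the filter on low counts. All are annotated as protein coding, and positions are on GRCm38 as the deposited table gives them.

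The material was RNA from mouse tumours of LLC1, a Lewis lung carcinoma cell line. In sgLkb1 tumours the line carried a guide against Lkb1 (Stk11), and their genotype is labelled LKB1 knockdown. LLC1 tumours are labelled WT. Tumours had received radiation with an immune checkpoint inhibitor (RI) or the inhibitor alone (ICI), which gave the groups sgLkb1 RI, sgLkb1 ICI, LLC1 RI and LLC1 ICI with 3 libraries each. A further 3 sgLkb1 libraries had radiation alone (RT) and a separate table, in fragments per kilobase and sequencing depth (FPKM). No group was untreated, and none was LLC1 with RT. No source used here gives the inhibitor, the radiation dose, the number of clones behind each line or the animals per library, so p-values measure only the spread between these libraries. The descriptions of sgLkb1 ICI 1 and 2 share the name H80, so these may not be independent, and results are also given with their counts summed where a call changes. Those of sgLkb1 ICI 3, sgLkb1 RI 1 and sgLkb1 RI 3 carry the name SG793, which no LLC1 library has. JIAN is in the descriptions of all LLC1 RI libraries, LLC1 ICI 2, sgLkb1 RI 2 and sgLkb1 ICI 1. TUI is in those of LLC1 ICI 1, LLC1 ICI 3 and sgLkb1 ICI 2. What these names mean is not given, and neither sgLkb1 against LLC1 nor RI against ICI in LLC1 can be fully told apart from them. Under RI only sgLkb1 RI 2 shares a name with the LLC1 libraries. Library sgLkb1 ICI 3 has CON in its description, where sgLkb1 RI 1 and 3 have ICI+RT, and its results are given with and without it where it matters.

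LKB1 is active only in a complex, in which STRAD holds it in an active shape and MO25 stabilises the pair. The complex phosphorylates the activation loop of the AMPK catalytic subunit when the gamma subunit senses a falling energy charge, and it does the same for a family of AMPK-related kinases. LKB1 is a tumour suppressor that is often lost in lung adenocarcinoma.

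The 12 libraries with counts hold 17289313 to 23471917 counts each, and 16617 genes were tested. The tumour libraries expressed the epithelial keratin gene Krt8 at 478 to 755 counts scaled to library size (CPM) in sgLkb1 and 441 to 592 CPM in LLC1. Krt18, its partner keratin, stood at 11.3 to 32.1 CPM in sgLkb1 and 49.3 to 78.4 CPM in LLC1, ranges that did not overlap. Epcam, a further epithelial gene, stood at 0.778 CPM or less and was at 0 in 5 libraries. Those were the sgLkb1 ICI libraries, sgLkb1 RI 1 and sgLkb1 RI 3, and no LLC1 library was at 0. The lung lineage gene Nkx2-1 had no count in any of the 12, so lung lineage markers gave no check of the cells. Host cells are part of each library, and in bulk RNA fewer cells of a type and less RNA per cell cannot be told apart. All 6 T cell markers summed to 1.05 to 3.07 CPM in the sgLkb1 libraries, against 18.6 to 34.7 CPM in the LLC1 libraries. The 6 macrophage markers summed to 211 to 431 CPM in sgLkb1 libraries and 583 to 958 CPM in LLC1 libraries. None of the T cell or macrophage markers was at 0 in a whole group. Their part in the results below was not tested.

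Promoter sequence is shown for the gene that the guide targets and for Cab39 and Prkaa1, which were higher in sgLkb1 tumours under both treatments. Each line gives the 250 bases before the RefSeq start on GRCm38.p6, all on the plus strand, and capitals mark the GC box bound by SP1 (GGGCGG, or CCGCCC on the other strand, with overlapping matches both marked). Stk11 is chr10:80115545-80115794, Cab39 chr1:85793191-85793440 and Prkaa1 chr15:5143611-5143860.
Stk11: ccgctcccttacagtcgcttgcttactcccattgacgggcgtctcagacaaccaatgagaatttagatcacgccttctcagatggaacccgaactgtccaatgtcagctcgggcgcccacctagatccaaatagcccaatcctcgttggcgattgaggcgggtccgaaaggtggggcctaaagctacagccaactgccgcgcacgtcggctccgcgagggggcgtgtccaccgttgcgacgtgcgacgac
Cab39: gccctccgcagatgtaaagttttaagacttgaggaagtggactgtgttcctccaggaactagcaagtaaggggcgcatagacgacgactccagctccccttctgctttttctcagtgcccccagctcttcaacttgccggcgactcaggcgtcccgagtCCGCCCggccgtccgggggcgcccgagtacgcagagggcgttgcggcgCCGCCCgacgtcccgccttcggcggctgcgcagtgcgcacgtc
Prkaa1: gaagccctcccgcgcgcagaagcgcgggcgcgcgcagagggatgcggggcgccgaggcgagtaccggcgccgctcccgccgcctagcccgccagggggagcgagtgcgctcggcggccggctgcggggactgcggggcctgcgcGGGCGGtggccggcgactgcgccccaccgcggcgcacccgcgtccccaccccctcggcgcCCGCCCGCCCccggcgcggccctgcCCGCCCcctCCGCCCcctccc
The Prkaa1 window holds 5 GC boxes, the nearest 12 bases before the start, and 85.2% of its bases are G or C. The Cab39 window holds 2 at 64.8% G or C, and the Stk11 window holds none of these letters at 59.6%. A GC box does lie 11 bases after the Stk11 start, outside the window. The window of Prkab2, which was lower in sgLkb1 under RI and is not printed here, also holds 5, at 69.2% G or C. Over all 32851 RefSeq windows of 250 bases the median was 52.4% G or C, and 32.7% held a GC box. The Stk11 window instead has 3 copies of CCAAT, which 33.8% of windows hold on either strand, and 1 TGACG, which 17.8% hold. These matches describe the letters and not factor binding.

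Stk11, the target of the guide (ENSMUSG00000003068, chr10:80115803-80130682), was checked first. It stood at 139, 111 and 127 CPM in sgLkb1 RI libraries 1 to 3 and at 115, 128 and 152 CPM in sgLkb1 ICI libraries, against 140, 140 and 147 CPM in LLC1 RI and 168, 152 and 171 CPM in LLC1 ICI. Within each treatment every sgLkb1 library lay below every LLC1 library, though the groups nearly met under RI (139.2 CPM in sgLkb1 RI 1 against 140.0 CPM in LLC1 RI 2) and under ICI (151.5 CPM in sgLkb1 ICI 3 against 151.8 CPM in LLC1 ICI 2). The log2 fold change in sgLkb1 against LLC1 was -0.18 ± 0.12 under RI (SE, adjusted p = 0.304). Under ICI it was -0.31 ± 0.11, with adjusted p = 0.0556, so only the average of both treatments passed, at -0.25 ± 0.08 (adjusted p = 0.0283). Its 95% interval runs from -0.42 to -0.07. The average was lost without sgLkb1 ICI 1, sgLkb1 ICI 2, sgLkb1 RI 2, sgLkb1 RI 3, LLC1 ICI 1 or LLC1 ICI 3, with adjusted p from 0.0532 to 0.0737, and with the H80 libraries summed (adjusted p = 0.0559). Under ICI it passed without sgLkb1 ICI 3 (-0.43, adjusted p = 0.00455), which leaves only the H80 libraries in sgLkb1 ICI. Stk11 shares 232 exon bases, 5.07% of its exons, with Cbarp on the opposite strand (3136 counts over the 12 libraries, against 35008 for Stk11), and the strand setting of the counting is not given. A guide can disable a gene while leaving its RNA, and the position of the guide is not given, so these levels do not measure how much LKB1 protein remained.

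Under ICI, 2 of the 10 genes were higher in sgLkb1 than in LLC1 tumours and 0 were lower in edgeR's test, against a background of 31% of all genes tested, 16.1% higher and 14.9% lower. At an unadjusted p under 0.05 Stk11 was also lower, and DESeq2 called it as well. Under RI, 2 were higher and 1 was lower, against 21.2% of all genes, 9.18% higher and 12.1% lower. On the average of both treatments Cab39 and Prkaa1 were higher and Stk11 lower, 2 and 1 of 10, against 40.7% of all genes, 20.2% higher and 20.5% lower, so the group as a whole was called no more often than other genes in that comparison. The median log2 fold change of the 10 was 0.16 under RI and 0.18 under ICI, where that of all genes was 0.02 and 0.00. On the average of both treatments it was 0.10, against 0.01 for all genes. Ranges of single libraries did not overlap for 5 genes under RI (Cab39, Prkaa1 and Prkag1 higher, Stk11 and Prkab2 lower) and for 4 under ICI (Cab39, Prkaa1 and Prkab1 higher, Stk11 lower), against 45.1% of all genes under RI (22.5% higher, 22.7% lower) and 41.7% under ICI (20% higher, 21.7% lower). These counts moved with single libraries. Under RI 0 genes passed without sgLkb1 RI 2 or sgLkb1 RI 3, and of the 2 that were higher 1, Prkaa1, passed without LLC1 RI 1 and 0 without LLC1 RI 2 or LLC1 RI 3. Without sgLkb1 ICI 3, Stk11 and Cab39l passed as lower under ICI, and on average 4 were higher (Cab39, Prkaa1, Strada and Prkag1) and 2 lower (Stk11 and Cab39l). Without sgLkb1 ICI 2 the average had 4 higher, with Prkab1 and Prkag1 beside Cab39 and Prkaa1, and 0 lower. Without sgLkb1 RI 2, Stk11 passed under ICI (adjusted p = 0.0483).

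**Figure D1:**
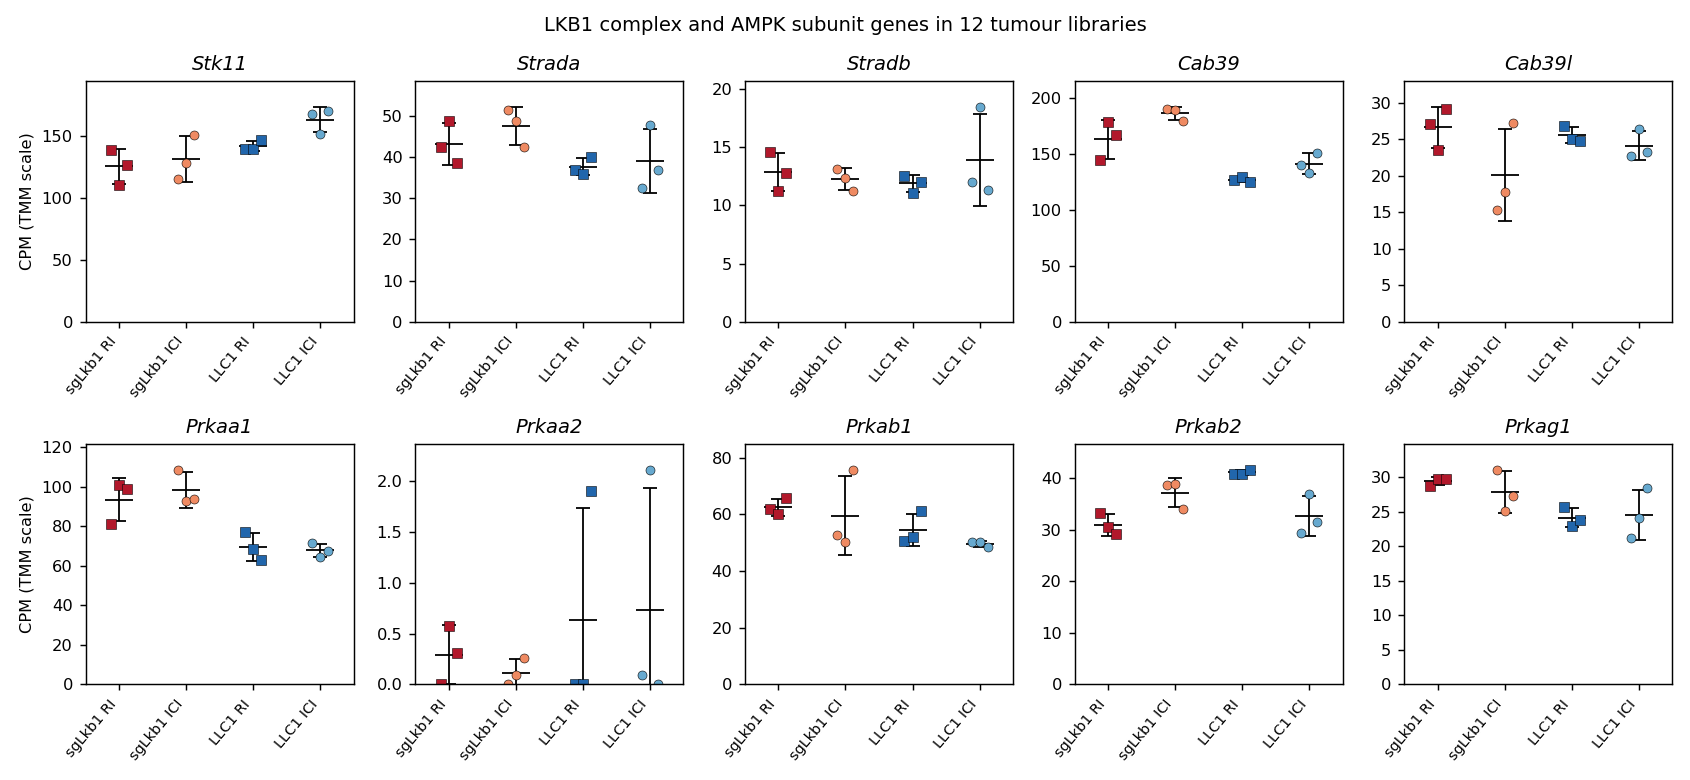
CPM on the TMM scale for the 10 genes in each of 12 libraries (symbols), with the mean and SD of 3 libraries as black bars, in the order sgLkb1 RI, sgLkb1 ICI, LLC1 RI and LLC1 ICI. Cab39 and Prkaa1 stand higher in both sgLkb1 groups, Prkab2 is lowest in sgLkb1 RI and highest in LLC1 RI, and Prkaa2 is above 1 CPM in 1 LLC1 ICI and 1 LLC1 RI library.

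Cab39 encodes MO25 alpha, the scaffold that locks STRAD and LKB1 together (ENSMUSG00000036707, chr1:85793441-85851576). It reached 144, 179 and 167 CPM in sgLkb1 RI and 190, 189 and 179 CPM in sgLkb1 ICI, against 127, 129 and 125 CPM in LLC1 RI and 140, 133 and 151 CPM in LLC1 ICI. The groups did not overlap under either treatment, and the closest approach was sgLkb1 RI 1 to LLC1 RI 2. Cab39 rose in sgLkb1 by 0.36 ± 0.09 under RI (adjusted p = 0.0159), by 0.40 ± 0.09 under ICI (adjusted p = 0.00757) and by 0.38 ± 0.07 on average (adjusted p = 0.000714), a 1.30-fold difference. The average held in 21 of 21 alternatives, while the RI call was lost without sgLkb1 RI 2, sgLkb1 RI 3 or any 1 LLC1 RI library (adjusted p from 0.0505 to 0.0727). Without LLC1 RI 3 and LLC1 ICI 2, which held muscle transcripts, both single-treatment calls were lost (adjusted p = 0.0644 under RI and 0.0617 under ICI). Scaled by library size alone the ICI change was 0.19 (adjusted p = 0.143), a scaling that moved the median of all genes to -0.21 under ICI, -0.05 under RI and -0.13 on average.

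Cab39l, the paralog MO25 beta (chr14:59440972-59585764), stood at 27.1, 23.6 and 29.2 CPM in sgLkb1 RI and at 15.3, 17.7 and 27.3 CPM in sgLkb1 ICI, against 26.8, 25.1 and 24.8 CPM in LLC1 RI and 22.8, 26.4 and 23.3 CPM in LLC1 ICI. The sgLkb1 ICI libraries 1 and 2 were the lowest of the 12 and sgLkb1 ICI 3 was among the highest. Its fitted change under RI was 0.06 ± 0.18 (adjusted p = 0.859). With ICI alone it was -0.26 ± 0.18 (adjusted p = 0.290), and -0.55 without sgLkb1 ICI 3 (adjusted p = 0.00341), when the average of both treatments was -0.24 (adjusted p = 0.0273). Across sgLkb1 ICI 1, 2 and 3 the 6 neutrophil markers summed to 616, 316 and 159 CPM, the 6 erythroid markers to 2194, 775 and 179 CPM and the 6 proliferation markers to 740, 983 and 1763 CPM. Cdadc1, on the opposite strand, covers 3.82% of the Cab39l exon bases, with 4071 counts against 5967, so some reads may be shared. The part of the marker differences and of this overlap in the Cab39l values was not tested.

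The STRAD genes, whose proteins hold LKB1 in its active shape, passed in none of the 6 comparisons with all 12 libraries. Strada (chr11:106163330-106202168) stood at 42.5, 48.7 and 38.5 CPM in sgLkb1 RI and 51.5, 48.7 and 42.4 CPM in sgLkb1 ICI, against 36.9, 35.9 and 39.9 CPM in LLC1 RI and 32.6, 47.7 and 36.9 CPM in LLC1 ICI. Its average was 0.24 ± 0.10 (adjusted p = 0.0727, 95% interval 0.02 to 0.46), and without LLC1 ICI 2, the highest LLC1 library, it was 0.30 (adjusted p = 0.0185), as it was 0.28 without sgLkb1 ICI 3 (adjusted p = 0.0254). Strada shares 158 exon bases with Ccdc47 on the same strand, 2.84% of its exons, so its reads are uncertain there. Stradb (chr1:58973522-58995715) lay between 11.2 and 14.6 CPM in the 6 sgLkb1 libraries and between 11.1 and 18.5 CPM in the 6 LLC1 libraries. The ranges overlapped, and its average was -0.04 ± 0.13 (adjusted p = 0.844, 95% interval -0.33 to 0.25).

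Prkaa1, which encodes the catalytic subunit alpha 1 (ENSMUSG00000050697, chr15:5143861-5181899), showed the largest fitted change under either treatment among the 9 genes above 10 CPM. It stood at 81.0, 101 and 98.7 CPM in sgLkb1 RI and 109, 92.5 and 93.5 CPM in sgLkb1 ICI, against 76.9, 68.7 and 62.8 CPM in LLC1 RI and 71.4, 64.6 and 67.3 CPM in LLC1 ICI. All 6 sgLkb1 libraries were above all 6 LLC1 libraries. Prkaa1 rose by 0.43 ± 0.11 under RI (adjusted p = 0.0173), by 0.54 ± 0.11 under ICI (adjusted p = 0.00429) and by 0.48 ± 0.08 on average (adjusted p = 0.000493), a 1.40-fold difference. The ICI and average calls held in 22 of 22 and 21 of 21 alternatives. The RI call was lost without sgLkb1 RI 2, sgLkb1 RI 3, LLC1 RI 2 or LLC1 RI 3, with adjusted p from 0.0678 to 0.0835, and without LLC1 RI 3 and LLC1 ICI 2 together (adjusted p = 0.0992).

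Prkaa2, the alpha 2 subunit best known from skeletal and heart muscle (chr4:105029874-105109890), was close to the detection limit. Its raw counts were 0, 11 and 6 in sgLkb1 RI and 0, 2 and 5 in sgLkb1 ICI, against 0, 0 and 40 in LLC1 RI and 2, 53 and 0 in LLC1 ICI. Only LLC1 RI 3, at 1.90 CPM, and LLC1 ICI 2, at 2.11 CPM, exceeded 1 CPM. The 10 skeletal muscle markers summed to 1045 and 1364 CPM in those libraries. In the other 10 libraries the same sum ran from 12.5 to 122 CPM in sgLkb1 RI, from 9.04 to 38.0 CPM in sgLkb1 ICI, and from 6.07 to 33.7 CPM in LLC1. No marker of that list was at 0 in a whole group. The fitted values of Prkaa2, -1.08 ± 1.72 under RI (adjusted p = 0.716) and -2.54 ± 1.93 under ICI (adjusted p = 0.339), have wide standard errors and give no direction.

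The beta subunits, which join alpha to gamma and bind glycogen, had fitted values of opposite sign under RI, and only that of Prkab2 passed. Prkab2 (ENSMUSG00000038205, chr3:97658193-97673812) stood at 33.4, 30.5 and 29.1 CPM in sgLkb1 RI and 38.7, 39.0 and 34.1 CPM in sgLkb1 ICI, against 40.9, 40.9 and 41.7 CPM in LLC1 RI and 29.4, 37.0 and 31.6 CPM in LLC1 ICI. All LLC1 RI libraries were above all sgLkb1 RI libraries, while the ICI groups overlapped. Prkab2 fell by 0.41 ± 0.11 under RI (adjusted p = 0.0170) and had a value of 0.19 ± 0.11 under ICI (adjusted p = 0.202). The RI call was lost without sgLkb1 RI 2 (adjusted p = 0.0568) or sgLkb1 RI 3 (adjusted p = 0.0767). The difference between the genotype effects, which equals the difference between the RI effects, was -0.60 ± 0.15 and missed the threshold after adjustment (unadjusted p = 0.00192, adjusted p = 0.121).

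Prkab1 (chr5:116013586-116024508) stood at 61.8, 60.0 and 65.8 CPM in sgLkb1 RI and 52.6, 50.4 and 75.9 CPM in sgLkb1 ICI, against 50.5, 52.0 and 61.1 CPM in LLC1 RI and 50.1, 50.4 and 48.5 CPM in LLC1 ICI. The value of 75.9 CPM in sgLkb1 ICI 3 was the highest of the 12, and the ICI groups nearly met, at 50.39 CPM in sgLkb1 ICI 2 and 50.35 CPM in LLC1 ICI 2. Its fitted values were 0.20 ± 0.14 under RI (adjusted p = 0.365), 0.26 ± 0.14 under ICI (adjusted p = 0.174) and 0.23 ± 0.10 on average (adjusted p = 0.0835). The average passed without sgLkb1 ICI 2 (0.29, adjusted p = 0.0368) and with the H80 libraries summed (0.28, adjusted p = 0.0450).

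Of the gamma subunits, which hold the nucleotide-sensing sites, Prkag1 (chr15:98812798-98831508) stood at 28.8, 29.8 and 29.8 CPM in sgLkb1 RI and 31.1, 25.1 and 27.2 CPM in sgLkb1 ICI, against 25.7, 23 and 23.8 CPM in LLC1 RI and 21.2, 24.1 and 28.4 CPM in LLC1 ICI. The RI groups did not overlap and the ICI groups did. Its average of 0.23 ± 0.09 just missed the threshold (adjusted p = 0.0533), and passed without sgLkb1 ICI 2, sgLkb1 ICI 3 or LLC1 ICI 3 (adjusted p from 0.0366 to 0.0387). An annotated antisense gene on the other strand, B130046B21Rik, covers 43.7% of the Prkag1 exon bases, with 557 counts over the 12 libraries against 6464 for Prkag1. Whether counting used strand is not given, so reads of the pair may be mixed.

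The other gamma genes complete the family. Prkag2 stood at 24.0, 20.7 and 23 CPM in sgLkb1 RI and 15.6, 17.1 and 19.2 CPM in sgLkb1 ICI, against 27.8, 23 and 26.2 CPM in LLC1 RI and 26.2, 33.8 and 24.4 CPM in LLC1 ICI. It fell by 0.70 ± 0.14 under ICI (adjusted p = 0.00365), without overlap between the groups, and had a value of -0.19 ± 0.14 under RI (adjusted p = 0.402). The ICI call held in 22 of 22 alternatives, and the difference between the treatments, 0.51 ± 0.20, did not pass (adjusted p = 0.287). For RI against ICI in sgLkb1 the value of Prkag2 was 0.38 and not called, and 0.47 without sgLkb1 ICI 3 (adjusted p = 0.0422). Prkag3, the muscle gamma 3 subunit, had 47 counts over the 12 libraries and was not tested.

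**Figure D2:**
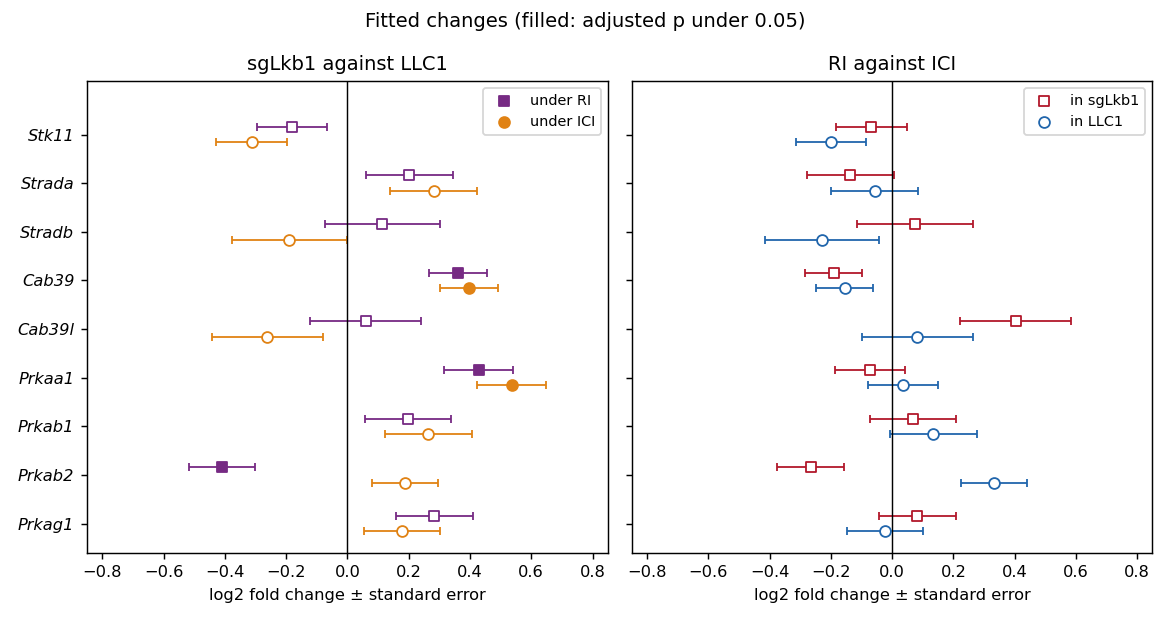
Fitted log2 fold changes with standard errors for 9 of the genes (Prkaa2 is left out for its low counts), on the left sgLkb1 against LLC1 under RI and ICI and on the right RI against ICI in sgLkb1 and in LLC1. Filled symbols, which passed the adjusted threshold of 0.05, are Cab39 and Prkaa1 under both treatments and Prkab2 under RI.

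For RI against ICI, 0 of the 10 genes passed in sgLkb1 tumours and 0 in LLC1 tumours in edgeR's test, where 0.0843% and 0.283% of all genes were called. At an unadjusted p under 0.05 there were 2 in sgLkb1 (Cab39l and Prkab2) and 1 in LLC1 (Prkab2), and DESeq2 called 0 in each. Prkab2 had opposite signs, -0.27 ± 0.11 in sgLkb1 (adjusted p = 0.297) and 0.33 ± 0.11 in LLC1 (adjusted p = 0.252). Within LLC1 ICI it stood at 37.0 CPM in library 2 (JIAN) and 29.4 and 31.6 CPM in libraries 1 and 3 (TUI). All LLC1 RI libraries are JIAN, at 40.9 to 41.7 CPM, so the LLC1 value cannot be fully told apart from this label. The same holds for the Prkab2 difference between genotypes. For the difference of the RI effects between genotypes 0 genes passed against 0.367% of all genes (0.0602% higher, 0.307% lower), 1 (Prkab2) at an unadjusted p under 0.05, and DESeq2 called Prkab2 (adjusted p = 0.0104). For Stk11 the RI value was -0.07 ± 0.12 in sgLkb1 (95% interval -0.32 to 0.18) and -0.20 ± 0.11 in LLC1 (-0.45 to 0.05), so changes within those intervals cannot be told from none. Leaving out sgLkb1 ICI 3 brought Cab39l past the threshold for RI against ICI in sgLkb1 (0.69, adjusted p = 0.00373) and for the difference (0.61, adjusted p = 0.0357), and Prkab2 for the difference (-0.66, adjusted p = 0.0150). Over all genes, 14 passed for RI against ICI in sgLkb1 with that library and 3324 without it, when only the H80 libraries stand for sgLkb1 ICI.

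Levels can be compared between genes only per length, and here the length matters. The length implied by the deposited counts and FPKM equals the sum of all distinct annotated exons, overlapping ones included, for 9 of the 10 genes in GENCODE M21. That length is 2.99 times the union of exons for Prkab2, 2.25 times for Prkab1, 1.81 times for Stk11 and 1.25 times for Cab39. For Prkag1 the implied 1638 bases match neither the exon sum of 2836 nor the union of 2175. On the deposited FPKM Stk11 ranked behind Cab39 and Prkag1 in sgLkb1 RI (15) and sgLkb1 ICI (14.7), and first in LLC1 RI (17.8) and LLC1 ICI (20.9). Per base of the exon union, scaled like FPKM, Stk11 was first in all 4 groups, at 27.1 ± 3.46 in sgLkb1 RI and 26.5 ± 5.16 in sgLkb1 ICI, against 32.2 ± 0.397 in LLC1 RI and 37.9 ± 2.23 in LLC1 ICI (SD, n = 3 each). Cab39 came second, and its range overlapped that of Stk11 in both sgLkb1 groups and in neither LLC1 group. Prkab1 and Prkaa1 followed, then Prkag1. Strada and Prkab2 came next, with Prkab2 above Strada in LLC1 RI, where their ranges were apart, and below it in the other groups. Cab39l, Stradb and Prkaa2 were the lowest in that order in all 4 groups, at 2.73 to 3.88, 1.54 to 2.04 and 0.0140 to 0.0985.

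The balance within each complex was described by ratios of FPKM. Stk11 over the sum of Cab39 and Cab39l was 0.842, 0.572 and 0.673 in sgLkb1 RI and 0.589, 0.651 and 0.763 in sgLkb1 ICI, against 0.945, 0.942 and 1.02 in LLC1 RI and 1.07, 0.988 and 1.02 in LLC1 ICI. All 6 sgLkb1 libraries lay below all 6 LLC1 libraries. This ratio was formed after the values of its genes were seen and is given without a test. On the exon union it was 0.844 to 1.25 in sgLkb1 and 1.40 to 1.59 in LLC1, also apart. Stk11 over the sum of Strada and Stradb overlapped over both treatments, at 1.63 to 2.58 in sgLkb1 and 2.13 to 3.5 in LLC1, and under ICI. Under RI it was apart, at 1.68 to 2.28 in sgLkb1 and 2.60 to 2.74 in LLC1, also without a test.

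**Figure D3:**
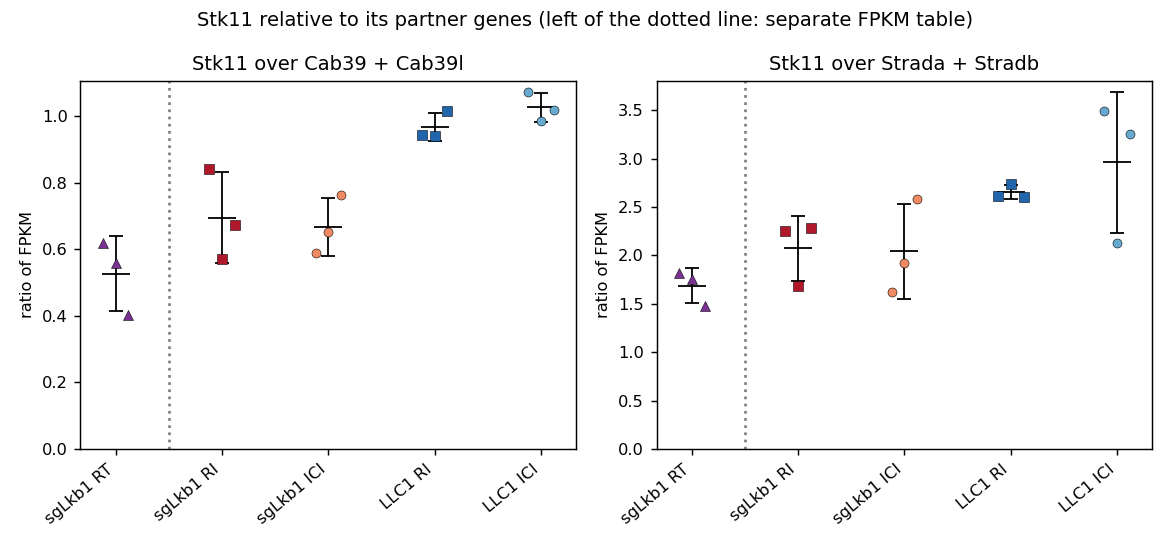
Ratio of Stk11 FPKM to the summed FPKM of the MO25 genes (left) and of the STRAD genes (right), with each library as a symbol and the mean and SD of 3 libraries as bars. The MO25 ratio lies at 0.572 to 0.842 in the sgLkb1 RI and ICI libraries and at 0.942 to 1.07 in LLC1, and the RT libraries at the far left come from a separate table.

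For each pair of paralogs the share of one in the summed FPKM of the pair was compared between the 6 sgLkb1 and the 6 LLC1 libraries, permuting labels within treatment (exact test, 400 arrangements, 2-sided, adjusted over 4 shares). Cab39l made up 13.6 ± 3.79% of the MO25 pair in sgLkb1 and 17.8 ± 1.81% in LLC1 (SD, n = 6 each), a difference of -4.19 percentage points (exact permutation p = 0.005, the smallest this design can give, adjusted p = 0.02). Within the treatments the share was 16.1 ± 2.44% in sgLkb1 RI against 19.0 ± 0.697% in LLC1 RI, and 11.1 ± 3.43% in sgLkb1 ICI against 16.6 ± 1.89% in LLC1 ICI (SD, n = 3 each). The adjusted p was 0.02 without either H80 library, 0.06 to 0.16 without any 1 LLC1 library, and 0.16 without LLC1 RI 3 and LLC1 ICI 2 together. Cab39l was not itself called, and Cab39 was higher, so the share does not show a fall of Cab39l.

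Stradb made up 17.5 ± 2.37% of the STRAD pair in sgLkb1 and 20.3 ± 1.74% in LLC1 (exact permutation p = 0.06, adjusted p = 0.12, n = 6 each), and passed without sgLkb1 RI 1 (adjusted p = 0.04). Prkab2 made up 20.5 ± 4.04% of the beta pair in sgLkb1 and 24.3 ± 2.21% in LLC1 (exact permutation p = 0.1, adjusted p = 0.133, n = 6 each), with ranges apart under RI (16.7 to 19.7% against 23.7 to 26.8%) and overlapping under ICI (16.9 to 26.0% against 21 to 25.0%). Prkaa2 made up at most 0.564% of the alpha pair in sgLkb1, against 3.17% in LLC1, and means of 0.209% and 1.04% did not differ beyond their spread (exact permutation p = 0.455, adjusted p = 0.455, n = 6 each). Without LLC1 RI 3 and LLC1 ICI 2, the libraries with muscle transcripts, the difference in the Prkaa2 share became 0.177 percentage points from -0.831. Prkaa1 made up the rest of the alpha pair in each library.

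**Figure D4:**
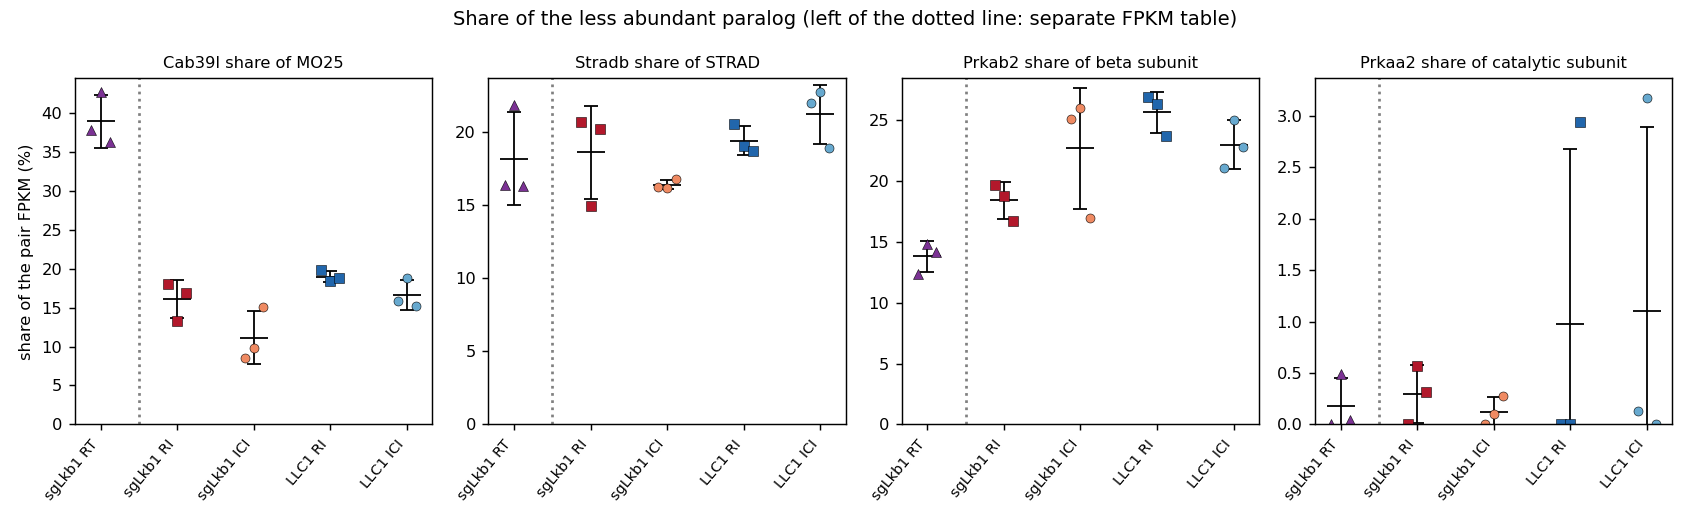
Share of Cab39l, Stradb, Prkab2 and Prkaa2 in the FPKM of their paralog pair, per library (symbols) with mean and SD of 3 libraries, for sgLkb1 RT (separate table, left of the dotted line), sgLkb1 RI, sgLkb1 ICI, LLC1 RI and LLC1 ICI. The Cab39l share averages 13.6% in sgLkb1 RI and ICI libraries and 17.8% in LLC1, and 38.9% in the RT libraries.

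The 3 sgLkb1 RT libraries had FPKM only, normalised in a separate table whose gene lengths are not given, so their levels stand beside the others without a test. Prkag1 stood at 47.6 to 49.3 FPKM with RT, against a range of 14.5 to 17.9 FPKM in sgLkb1 RI and ICI, a ratio of means of 2.90. Cab39l stood at 7.12, 9.23 and 8.74 FPKM, 2.82 times its mean in sgLkb1 RI and ICI. Over 9555 genes at 1 FPKM or more in both tables that ratio had a median of 1.16 and lay between 0.387 and 3.69 for the middle 90%, a range that takes in all 9 genes that could be compared. Stk11 stood at 11.7, 12.1 and 9.71 FPKM, a ratio of 0.754, and Prkab2 at 1.28 to 1.30 FPKM, a ratio of 0.606. Prkaa1 stood at 11.2 to 15.1 FPKM and Cab39 at 11.7 to 15.4 FPKM. Strada at 5.36 to 5.49, Prkab1 at 7.46 to 9.09 and Stradb at 1.05 to 1.5 FPKM had ratios of 0.904 to 0.960. Prkaa2 was at 0.0741 FPKM or less. The Cab39l share of the MO25 pair was 38.9 ± 3.35% and the Stk11 to MO25 ratio 0.620, 0.559 and 0.402 in these libraries.

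Within groups the genes did not vary as one. After group means were removed, Strada and Prkab2 deviated together over the 12 libraries (Pearson r = 0.82), as did Stradb and Prkab2 (0.81), Cab39l and Prkab1 (0.79), Stk11 and Cab39l (0.70) and Cab39 and Prkaa1 (0.64). Stk11 and Strada ran opposite (-0.66). These correlations describe 12 libraries that share depth and cell content, with no p given. Library sgLkb1 ICI 3 stood 0.48 above its group mean in log2 CPM for Cab39l, 0.37 for Prkab1 and 0.21 for Stk11. Library LLC1 ICI 2 stood 0.44 above for Stradb and 0.31 for Strada. With names of Gm and a number or ending in Rik left out, the genes most like Stk11 in this measure were Sub1 (r = 0.97), Fubp1 (0.96) and AF357399 (0.96). They were picked as the highest of all other genes tested, so the size of these values carries no test.

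**Figure D5:**
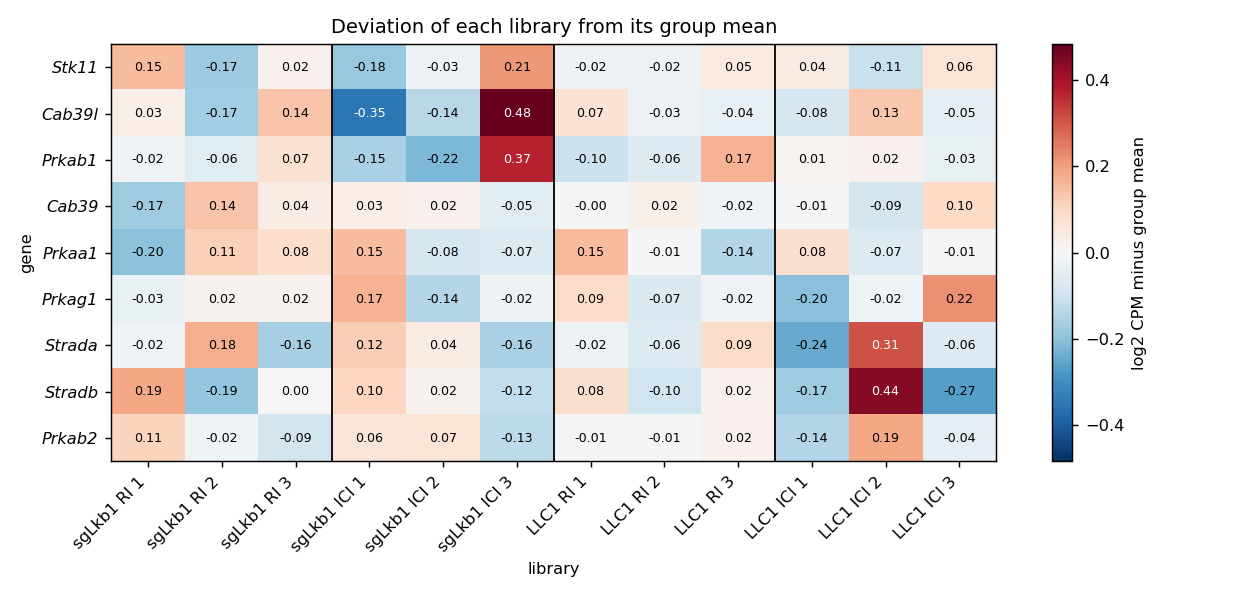
Log2 CPM of 9 genes in each library minus the mean of its group, in columns from sgLkb1 RI to LLC1 ICI. Among the larger deviations are Cab39l in sgLkb1 ICI 3 (0.48) and sgLkb1 ICI 1 (-0.35), Prkab1 in sgLkb1 ICI 3 (0.37), and Stradb and Strada in LLC1 ICI 2 (0.44 and 0.31).

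Genes around the complex were read from lists of known regulators, relatives and substrates. Of 11 upstream kinases and regulators of AMPK, 1 rose and 0 fell under RI in sgLkb1 against LLC1, where 9.18% of all genes rose and 12.1% fell. Camkk2, the calcium-dependent kinase that can activate AMPK without LKB1, rose by 0.55 ± 0.12 (adjusted p = 0.00481), with 84.4, 89.1 and 95.5 CPM in sgLkb1 RI and 64.1, 61.3 and 58.2 CPM in LLC1 RI, groups that did not overlap. Under ICI 1 rose and 1 fell, where 16.1% of all genes rose and 14.9% fell, so neither count stands above the background. Sesn1, a stress-induced sestrin, fell by 0.81 ± 0.22 (adjusted p = 0.0136). Its call was lost without LLC1 RI 3 and LLC1 ICI 2 together (-0.67, adjusted p = 0.0621) and with only the groups compared (adjusted p = 0.0714). Fnip1, a folliculin partner that binds AMPK, rose by 0.59 ± 0.20 (adjusted p = 0.0398), a call lost without any 1 of sgLkb1 ICI 1, sgLkb1 ICI 2, sgLkb1 RI 1 or the 6 LLC1 libraries, and with the H80 libraries summed (adjusted p = 0.136). Without sgLkb1 ICI 3 the counts were 3 and 2 under ICI, and 2 fell under RI. Without sgLkb1 RI 2, Camkk1 also fell under ICI, which made 2. The value of Sesn1 under RI was -0.41 ± 0.22 (adjusted p = 0.209). The median of the list was -0.03 under RI and 0.14 under ICI.

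Among the AMPK-related kinases, which LKB1 also activates, 11 of 12 were tested (Brsk2 had 71 counts in all). Under RI 0 rose and 1 fell, against 21.2% of all genes called, and under ICI 3 rose and 1 fell, against 31%. Nuak2, a kinase of cell adhesion, fell by 2.38 ± 0.33 under RI (adjusted p = 0.000282), with 1.94, 1.61 and 1.97 CPM in sgLkb1 RI and 8.61, 8.04 and 12.2 CPM in LLC1 RI. Under ICI Nuak2 fell by 1.13 ± 0.31 (adjusted p = 0.0153). That call was lost without LLC1 RI 3 and LLC1 ICI 2 together (adjusted p = 0.0537) and with only the groups compared (adjusted p = 0.0658). The salt-inducible kinase Sik1 rose under ICI by 2.05 ± 0.18 (adjusted p = 3.39e-05), with 219, 149 and 130 CPM in sgLkb1 ICI and 43.7, 37.6 and 38.9 CPM in LLC1 ICI, and Sik3 by 0.45 ± 0.11 (adjusted p = 0.00840). Brsk1, which also rose (0.44 ± 0.15, adjusted p = 0.0450), was named after its value was seen, and its call was lost without sgLkb1 ICI 2, sgLkb1 ICI 3, sgLkb1 RI 1, sgLkb1 RI 3 or any 1 of the 6 LLC1 libraries (adjusted p from 0.0560 to 0.179) and with the H80 libraries summed (adjusted p = 0.0550). Under RI the value of Sik1 was 0.46 ± 0.18 (adjusted p = 0.0868), and it passed without sgLkb1 ICI 1 (adjusted p = 0.0202) or sgLkb1 ICI 3 (adjusted p = 0.0328), and with the H80 libraries summed (adjusted p = 0.0387). The median of the list was 0.02 under RI and 0.06 under ICI.

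Of 17 genes for AMPK substrates, 1 rose and 2 fell under RI, and 4 rose and 1 fell under ICI, against 21.2% and 31% of all genes called, so these counts lie near or below the background. Foxo3, a transcription factor that AMPK phosphorylates, rose by 0.67 ± 0.12 under RI (adjusted p = 0.00161) and by 1.38 ± 0.12 under ICI (adjusted p = 3.19e-05). It stood at 126, 164 and 135 CPM in sgLkb1 RI and 191, 200 and 216 CPM in sgLkb1 ICI, against 80.3, 86.3 and 101 CPM in LLC1 RI and 82.1, 74.1 and 76.9 CPM in LLC1 ICI. Gys1, muscle glycogen synthase, rose by 0.91 ± 0.11 under ICI (adjusted p = 0.000182). Pfkfb3 (0.87 ± 0.24, adjusted p = 0.0176), which drives glycolysis, and Rptor (0.48 ± 0.17, adjusted p = 0.0464), the mTORC1 scaffold, were named after their values were seen. The Rptor call was lost without any 1 library other than sgLkb1 ICI 3 and sgLkb1 RI 2 (adjusted p from 0.0597 to 0.191) and with a replicate block (adjusted p = 0.0577). Crtc2, a coactivator of CREB, fell by 0.48 ± 0.09 under RI (adjusted p = 0.00276). Txnip, an inhibitor of glucose uptake, fell by 1.47 ± 0.41 under RI (adjusted p = 0.0277) and by 1.17 ± 0.41 under ICI (adjusted p = 0.0499). With the H80 libraries summed, 2 rose (Foxo3 and Gys1) and 0 fell under ICI, and 3 fell under RI, Tbc1d1 beside Crtc2 and Txnip. The count that rose under ICI was also 2, the same genes, without sgLkb1 ICI 1, sgLkb1 ICI 2 or any 1 LLC1 ICI library, and 8 without sgLkb1 ICI 3. Without sgLkb1 ICI 3, 2 fell under ICI, Txnip not among them, and 3 rose and 4 fell under RI. The Txnip call was lost without sgLkb1 ICI 1, LLC1 ICI 2, LLC1 ICI 3, LLC1 RI 1, LLC1 RI 2 or any 1 sgLkb1 RI library under ICI, and without any 1 sgLkb1 RI library or LLC1 RI 3 under RI. The median of the list was 0.03 under RI and 0.04 under ICI, where all genes had 0.02 and 0.00.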

How the data were processed

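Counts and FPKM for the 12 RI and ICI libraries, and FPKM alone for the 3 RT libraries, were deposited by the authors, per the file headers. HISAT2 is the aligner and GRCm38 and mm10 the builds named, per the submitters' processing notes. The counter, annotation, strand setting and versions: not given in the sources used here. Libraries were matched to columns by their descriptions. Deposited counts were scaled by TMM, filtered with filterByExpr (minimum count 10, total 15) to 16617 genes and tested with edgeR 4.0.16 (R 4.3.3) by the quasi-likelihood test, 1 mean per group over all 12 libraries, for 6 contrasts, 2-sided, with Benjamini-Hochberg adjustment over all genes at 0.05. SE is the log2 fold change divided by the square root of F. Alternatives included DESeq2 1.42.0, other scalings, no filter, a replicate block, leaving out libraries and the groups of library names. Paralog shares came from the authors' FPKM with exact permutation tests, and FPKM of the RT table was not tested against the others. Gene lengths were read from GENCODE M21 and promoters from RefSeq (10 of 10 genes matched).

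The 10 genes, the gene lists and the marker lists were chosen with earlier results of these data known. By rule all 10 genes, Prkag2 and Prkag3 were named, with up to 2 rising and 2 falling members of smallest p per list. The 3 genes most like Stk11 were also named, with Gm-numbered and Rik names left out. On counts simulated for sgLkb1 against LLC1 under ICI over 16617 genes, the test recovered 14.9% of 1.5-fold, 52.2% of 2-fold and 90.9% of 4-fold changes, with 6 false calls. Changes were planted in only 67, 67 and 66 genes at these sizes, where 31% of all genes were called under ICI in the data. The adjusted threshold was therefore stricter in the simulation, so these rates do not carry over to the 10 genes. Changes below 1.5-fold, the size seen for most of these genes, can still be missed with 3 libraries a group.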

Additional observations from a re-analysis of the deposited data

Results flagged for a closer look

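Sik1 was picked out because the effect of RI against ICI differed between sgLkb1 and LLC1 tumours by -1.59 on the log2 scale (SE 0.25, adjusted p = 0.0250, edgeR's quasi-likelihood test). Sik1 stood at 100, 131 and 101 CPM in sgLkb1 RI and 219, 149 and 130 CPM in sgLkb1 ICI, against 71.3, 84.7 and 86.1 CPM in LLC1 RI and 43.7, 37.6 and 38.9 CPM in LLC1 ICI. It rose with RI in LLC1 by 1.01 ± 0.18 (adjusted p = 0.0448), a call lost without any 1 LLC1 library, sgLkb1 ICI 2, sgLkb1 RI 1 or sgLkb1 RI 3, with a replicate block (adjusted p = 0.0830) and without LLC1 RI 3 and LLC1 ICI 2 together (adjusted p = 0.377). The difference was lost without sgLkb1 RI 1, sgLkb1 RI 3, LLC1 RI 2, LLC1 RI 3 or any 1 LLC1 ICI library, with adjusted p from 0.0511 to 0.0963, with a replicate block (adjusted p = 0.0543) and without LLC1 RI 3 and LLC1 ICI 2 together (adjusted p = 0.164). Without sgLkb1 ICI 3, RI against ICI in sgLkb1 also passed for Sik1 (-0.72, adjusted p = 0.0107). None of the 10 LKB1 complex and AMPK genes met the criterion by which Sik1 was picked out.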

How the results depend on the processing

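Of the 10 genes, the number past the threshold for sgLkb1 against LLC1 was 2 to 4 under ICI, 0 to 3 under RI and 2 to 6 on average when 1 library was left out, and 0 to 1, 0 to 0 and 0 to 2 for RI against ICI in sgLkb1, in LLC1 and their difference. The SG793 libraries are sgLkb1 ICI 3, sgLkb1 RI 1 and sgLkb1 RI 3, so without them sgLkb1 RI has 1 library. In sgLkb1 ICI only the H80 libraries then remain. The JIAN libraries are sgLkb1 RI 2, sgLkb1 ICI 1, LLC1 ICI 2 and all of LLC1 RI, so 3 groups have 1 library. A lone library is then assumed to vary like the other groups, and these values give no replicate check of that group. Without the SG793 libraries the number was 4 under ICI and 5 on average, among the JIAN libraries alone 5 on average, without LLC1 RI 3 and LLC1 ICI 2 it was 1 under RI, and DESeq2 gave 1 for the difference. The Cab39l share difference lost its call without LLC1 RI 3 and LLC1 ICI 2 (-3.71 points), and ranged from -5.17 to -3.51 with 1 library left out. Replicate numbers did not pair the libraries: deviations of same-numbered libraries correlated at a mean r of 0.00638 (-0.344 to 0.301), and the best match shared the number for 3 of 12. With a replicate block the Cab39l share difference was -4.19 points at adjusted p = 0.125 (exact sign flips of same-numbered pairs). That is the lowest adjusted p a single share can reach with so few pairs, so the block could not have called it alone. The Prkaa2 share ranged from -1.11 to -0.31 points with 1 library left out, and turned to 0.177 points without the libraries with muscle transcripts. As a log2 ratio with a pseudocount of 1 FPKM it passed (-0.39, adjusted p = 0.01, exact permutation). Prkaa2 was at 0.283 FPKM or less in the 12 libraries. With 1 FPKM added, that ratio mostly follows Prkaa1, which was higher in sgLkb1, and does not show a change in the Prkaa2 share. The Stradb share ranged from -3.38 to -1.88 and the Prkab2 share from -4.60 to -2.33 points. Pfkfb3 under RI was -0.09 (adjusted p = 0.835) and rests on sgLkb1 RI 2, at 123 CPM where sgLkb1 RI 1 and 3 had 55.6 and 63.2 CPM. It was -0.53 without that library (adjusted p = 0.0235), and 0.53 (adjusted p = 0.0135) and 0.52 (adjusted p = 0.0423) without the SG793 libraries and among the JIAN libraries, where that library is the whole sgLkb1 RI group, so it has no stable direction. The cause of the other changes was not tested. The shares per base of the exon union were added after the data were seen and changed no call.

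Over all genes, scaling by library size alone gave 1149 higher and 2278 lower under RI, 1564 and 4141 under ICI, and 2062 and 4599 on average, against 1525 and 2003, 2672 and 2474, and 3351 and 3410 with TMM. The number called under ICI was 5146, 3995 with the H80 libraries summed, 3123 with only the groups compared, 7827 without sgLkb1 ICI 3 and 7975 without the SG793 libraries. For RI against ICI it was 14 in sgLkb1 (0 to 3324 over the alternatives), 47 in LLC1 (0 to 828) and 61 for the difference (0 to 1902).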
